A study of Mus musculus with 18 samples.

Results

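Granulocytes are circulating white blood cells that store ready-made proteins in cytoplasmic granules, and neutrophils are the most abundant kind in mouse blood. Neutrophils leave the bone marrow under the cytokine G-CSF, follow chemokines into tissue, and carry the calcium-binding pair S100a8 and S100a9 as the main proteins of their cytosol. Their granule proteins are made in a fixed order during maturation in the marrow, so that primary (azurophilic), specific and gelatinase granules mark successive stages. A resting heart holds few of them beside its large population of resident macrophages, which take up debris and secrete the complement subunits C1qa, C1qb and C1qc.

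Here the wells of 28-day-old (P28) mouse hearts that carried granulocyte transcripts are described. Of 6515 wells that passed on the 6 P28 chips, 51 met the rule, which is 0.783% (exact 95% Clopper-Pearson interval 0.583 to 1.03%, covering counting error only). The series held 20495 passing wells in all. A well was a member if it was not a control well, had at least 500 detected genes, had unique molecular identifiers (UMIs, counted molecules) for S100a8 or S100a9, had UMIs for at least 2 of Retnlg, Csf3r, Cxcr2, Mmp9 and Il1r2, and had UMIs for at most 1 of the 3 C1q genes. The rule was applied to these same counts, so the levels of these 10 genes are described below and not tested. Macrophages, the main comparison, are the 3117 passing wells with UMIs for 2 or more C1q genes, and the name stands for that condition alone. They made up 84.6, 70.6 and 56.1% of the passing wells of replicates 2, 4 and 6 and 10.6, 13.2 and 3.56% of those of replicates 1, 3 and 5.

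All 6 P28 samples are hearts of the strain labelled Myh6/Esr1-Tomato without knockdown, each dispensed on its own ICELL8 nanowell chip. In these mice a tamoxifen-dependent Cre under the cardiomyocyte promoter Myh6 switches on a tdTomato reporter, and the study gave tamoxifen by mouth to the dams in the first days after birth, so all groups share the transgenes and the drug. P28 hearts were digested by perfusion and spun slowly to separate cardiomyocytes (CMs) from other cells (NCMs). By the well reports the CM fraction was loaded for replicates 1 and 5 and the NCM fraction for replicates 2 and 6, while replicates 3 and 4 carry no fraction name; chips whose reports name mice mix 2 of them, and whether chips share mice is not given in the sources used here. The study states fewer mice for its P28 cells than these chips would hold without sharing, so some chips may share mice. Chips were taken as the replicates, p-values measure the spread between chips, which may be partly technical, and they are too small where chips share mice.

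The members were spread over 5 of the 6 chips. Replicate 1 held 7 of 1100 passing wells (0.636%), replicate 2 held 4 of 1468 (0.272%), replicate 3 held 5 of 711 (0.703%), replicate 4 held 9 of 1503 (0.599%) and replicate 6 held 26 of 1030 (2.52%). Replicate 5 held 0 of 703, which allows a share of up to 0.523% by the exact interval, or 0.427% at a floor of 3 counts. Replicate 6 thus gave more members than the other chips together, and its interval, 1.66 to 3.68%, lies above those of replicates 1, 2, 3 and 4. Without it the pooled share was 0.456%. The members had between 1139 and 136284 UMIs per well (median 7346) and between 503 and 4945 detected genes (median 963). Total UMIs per chip ran from 11161784 to 106226097, and the members' sums that entered the tests held 103216, 39931, 343131, 64845 and 196130 UMIs in replicates 1, 2, 3, 4 and 6. Between 137 and 580 well barcodes recurred between pairs of P28 chips, and 37 of the 51 members had a barcode that was also used on another P28 chip. Each chip was a separate library, and the part of such recurrence in the counts was not tested.

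The genes of the rule divided the members into wells with many and wells with very few granulocyte transcripts. S100a8 lies at chr3:90668978-90670035 and S100a9 at chr3:90692632-90695721 on mouse build GRCm38 (mm10). The summed S100a8 and S100a9 count ran from 1 to 2658 UMIs per well with a median of 13. No member lay between 6 and 13. In 25 wells the count was 1 to 6 UMIs, and it was a single UMI in 15 of them. In the other 26 wells it was 13 or more, with a median of 115. Per 10000 UMIs of the well, the median was 189 in the 26 wells and 2.38 in the 25. Each chip with members had wells of both kinds, with 4 of 7, 2 of 4, 4 of 5, 6 of 9 and 10 of 26 wells at 10 or more UMIs in replicates 1, 2, 3, 4 and 6.

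**Figure D1:**
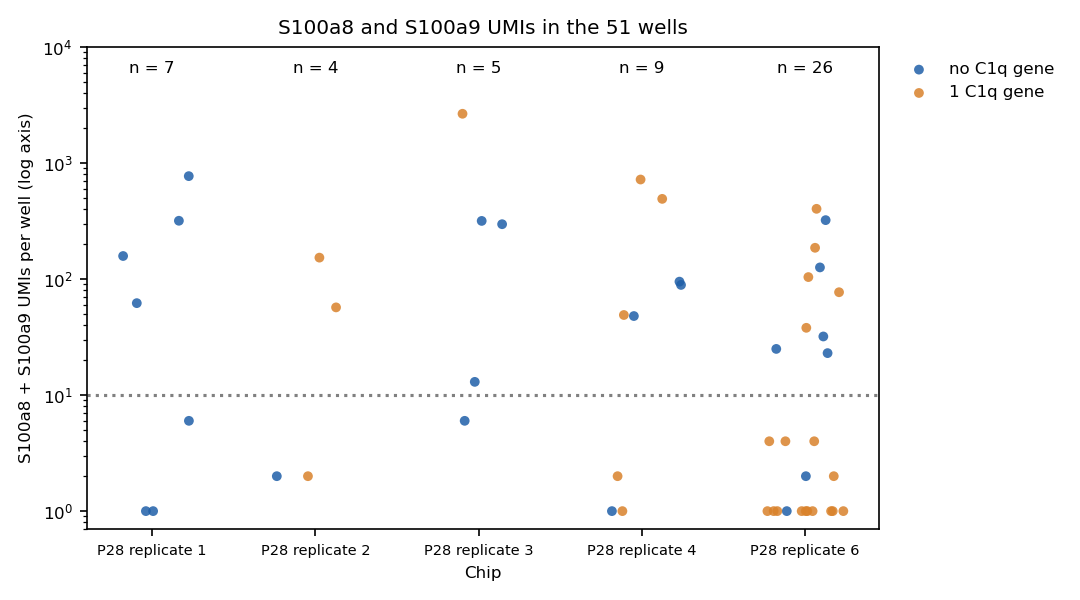
Each point is 1 of the 51 wells, placed by chip (horizontal) and by its summed S100a8 and S100a9 UMIs (vertical, log axis), with the colour giving the number of C1q genes detected. The dotted line is at 10 UMIs: 26 wells lie above it and 25 below, with no well between 6 and 13.

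The other rule genes followed this division in part. Retnlg, which encodes a resistin-like secreted protein of myeloid cells, had UMIs in 40 members, 22 of the 26 wells with 10 or more S100 UMIs and 18 of the other 25. It had 2 or more UMIs in 22 of the 26 but in 3 of the 25. Csf3r, the G-CSF receptor, was seen in 15 of the 26 and in 3 of the 25. Cxcr2, the chemokine receptor that draws neutrophils out of the marrow, was seen in 9 of the 26 and in 0 of the 25. Il1r2, the decoy receptor for interleukin 1, was seen in 13 and 7. Mmp9, gelatinase B, had UMIs in all 26 and in 24 of the 25, and 2 or more UMIs in 21 and 14. Mmp9 was 1 of exactly 2 detected genes in 31 members, and 20 wells would have met the rule had Mmp9 not been counted. By number of the 5 genes, 32 members had 2, 5 had 3, 12 had 4 and 2 had all 5.

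Summed over the members of a chip, S100a8 stood at 7974, 3706, 6006, 16069 and 4380 counts per 1000000 UMIs (CPM, scaled by the summed UMIs alone) in replicates 1, 2, 3, 4 and 6, against 6.07, 285, 0.842, 1343 and 657 CPM in macrophages of the same chips. Retnlg stood at 1880, 200.3, 434, 4781 and 2560 CPM, against 3.03, 83.1, 0, 286 and 379 CPM. Csf3r stood at 339, 75.1, 11.7, 154 and 372 CPM, against 0.506, 19.0, 0.842, 10.01 and 18.1 CPM. On each of the 5 chips these 3 genes were higher in members, as the rule requires of at least part of them. The C1q genes that the rule caps were not absent: 28 members had UMIs for 1 of the 3 and 23 for none, and C1qb reached 200.3, 170 and 117 CPM in the members of replicates 2, 4 and 6.

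Transcripts of the rule genes were also seen widely in wells of other kinds, and the extent differed between chips. Mmp9 had a UMI in 93.8, 91.2 and 85.7% of all passing wells of replicates 2, 4 and 3, and in 59.3, 37.2 and 14.4% of those of replicates 6, 1 and 5. S100a8 had one in 36.4, 28.2 and 38.3% of the wells of replicates 2, 4 and 6 and in 8.0, 6.05 and 2.42% of those of replicates 1, 3 and 5. Fibroblasts should lack S100a8. Of the 691 replicate 2 wells with at least 5 of 6 fibroblast markers (median 8598 UMIs, against 7807.5 in the members) 42.4% had a UMI for it, as did 30.2% of 543 such wells in replicate 4 (median 13341 against 3213) and 39.4% of 104 in replicate 6 (median 11234 against 4793). Where S100a8 or S100a9 was present in these wells, the median was 1 UMI. These wells were not free of other cell types' transcripts either, since 93.8, 82.1 and 66.3% of them had a UMI for C1qb, and 62, 23 and 5 of them met both granulocyte conditions with 2 or more C1q genes. The 61 control wells of the P28 chips held 62 Mmp9 UMIs in 20 wells, 25 C1qb UMIs in 17 wells and 4 S100a8 UMIs in 4 wells, and none of them met the marker conditions of the rule. On replicates 2, 4 and 6, however, 7 of 30 control wells had 2 or more C1q genes, which is the condition for the macrophage class.

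**Figure D2:**
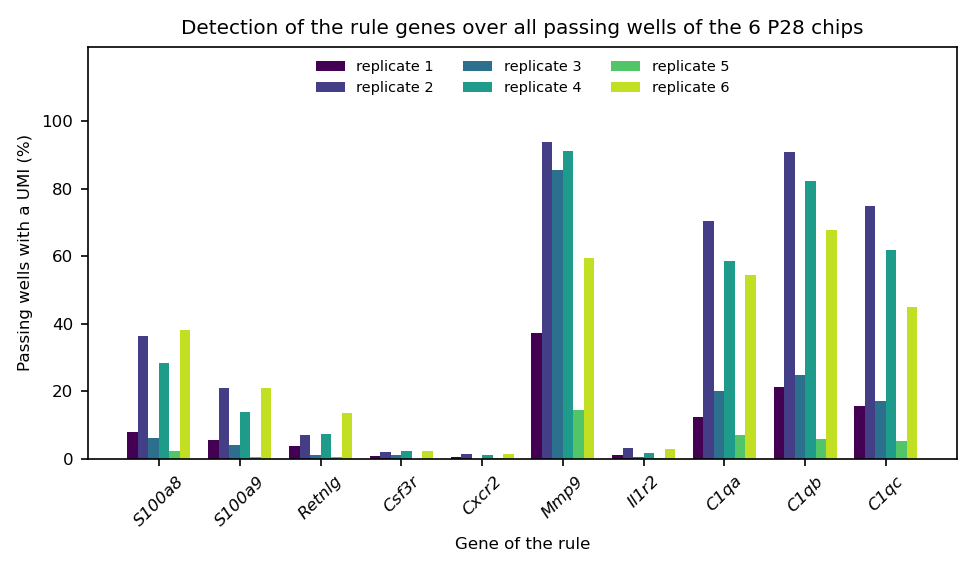
Bars give the percentage of all passing wells with at least 1 UMI (vertical) for each gene of the rule (horizontal) on each of the 6 P28 chips (colours). Mmp9 and the C1q genes were found in most wells of replicates 2 and 4, while Csf3r, Cxcr2 and Il1r2 were found in few wells of any chip.

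The label granulocyte therefore rests on different evidence in the 2 kinds of member. In the 26 wells the S100 count was 13 or more, against a median of 1 in fibroblast-marker wells that had any, though 17, 3 and 1 of those wells on replicates 2, 4 and 6 reached 10 as well. In the 25 wells it was 1 to 6 and overlapped that level. Most of these 25 had 1 further rule gene beside Mmp9 at 1 or 2 UMIs, but some held more: a replicate 1 well with 6 S100a9 UMIs also had 11 Retnlg, 5 Csf3r, 7 Il1r2, 16 Slpi and 28 Il1b UMIs. How many of the 25 were granulocytes cannot be told from these counts. The 51 wells are called granulocyte wells below because they met the rule, and values for both kinds are given for a part of the genes. The granulocyte type was checked against other lists. Of 10 eosinophil, basophil and mast cell markers, including Siglecf, Epx and Cpa3, 0 had a UMI in any member, whereas specific granule genes of neutrophils were present, as given below. Of the 5 primary granule genes Mpo, Elane, Prtn3, Ctsg and Ms4a3, which promyelocytes of the marrow make, Prtn3 alone had a UMI in members, 1 in all.

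Wells just inside and just outside the rule held the following S100 counts. The 32 members with exactly 2 of the 5 genes had a median of 2 S100 UMIs (1 to 2658). Another 384 wells met the S100 and C1q conditions with 1 of the 5 genes, which was Mmp9 in 361 of them, and their median was 1 UMI (1 to 479), with 12 wells at 10 or more. On the other side of the C1q cut, 202 wells met both granulocyte conditions but had UMIs for 2 (74 wells) or all 3 (128 wells) C1q genes. Their median was 2 S100 UMIs, the highest count was 20229, and 41 (20.3%) had 10 or more, against 26 of the 51 members (50.98%). Of all 104 passing P28 wells with 10 or more S100 UMIs, 26 were members, 41 were excluded by the C1q genes and 37 by too few of the 5 genes. These 202 wells lay mostly on replicates 2, 4 and 6 (96, 60 and 45 wells), where C1qb had a UMI in 90.7, 82.4 and 67.8% of all passing wells.

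Depth differed between the classes in both directions. The median UMIs per well were 12987 in granulocyte wells and 11238 in macrophages on replicate 1, 7807.5 and 6364 on replicate 2, 65864 and 48348 on replicate 3, 3213 and 9792 on replicate 4, and 4793 and 4569 on replicate 6. The log2 ratio averaged -0.12 ± 0.84 (SD, n = 5 chips), which an exact two-sided sign-flip permutation test did not distinguish from 0 (p = 1, the smallest possible being 0.0625). Only replicate 4 had a lower median in granulocyte wells, and without it the mean ratio was 0.25. Median detected genes were lower in granulocyte wells on 4 of 5 chips, by a mean log2 ratio of -0.32 ± 0.45 (SD, n = 5 chips, exact p = 0.25).

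Transcripts of other heart cells moved with the chip. CM markers made up 547 and 736 per 10000 UMIs of the granulocyte wells of replicates 1 and 3 and 18.0, 8.79 and 34.9 in replicates 2, 4 and 6. Macrophages of the same chips held 478 and 825 in replicates 1 and 3 and 35.8, 16.5 and 31.4 in the others, so both classes were high on the same 2 chips. All 8 markers of the CM list had UMIs in members, and 50 of the 51 wells had at least 1. Globin and other erythroid transcripts were found in all 51 wells, at 699, 3690, 11.2, 831 and 3685 per 10000 UMIs in replicates 1, 2, 3, 4 and 6 against 290, 414, 64.8, 1374 and 2226 in macrophages, and reached 8617 per 10000 in a single replicate 6 well. The 10 macrophage markers, of which every one had a UMI in some member, were at 0, 5.26, 0.437, 3.70 and 3.72 per 10000 UMIs in granulocyte wells and at 21.1, 51.7, 6.58, 46.8 and 57.2 in macrophages. The part of these other transcripts in the differences below was not tested.

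The UMIs of each class were summed per chip and compared within chips, for the 5 chips with at least 4 granulocyte wells. Of 11540 genes outside the rule, 61 (0.529%) passed an adjusted p of 0.05 in edgeR's quasi-likelihood fit (the adjustment being that of Benjamini and Hochberg over all tested genes), 23 higher in granulocyte wells (0.199%) and 38 lower (0.329%). The median tested gene had a log2 fold change of -1.24, and 824 genes (7.13%) had no UMI in any member. The median was -1.14 with scaling by the summed UMIs alone, -0.73 with median-of-ratios factors and -0.59 over the same genes in DESeq2. Over all 30607 genes that DESeq2 fitted it was 1.89, because 16809 of these had no UMI in members and were given a median of 4.21, though none of those was called higher. Log2 fold changes are therefore to be read against the median of their own fit, here -1.24. Scaling by the summed UMIs gave 21 genes higher and 29 lower, median-of-ratios factors 32 and 16. Left-out chips mattered: without replicate 1, 3, 4 or 6 the calls became 3 higher and 6 lower, 11 and 6, 13 and 13, and 9 and 19, and without both chips rich in CM transcripts (replicates 1 and 3) 0 and 2. Both classes were chosen on counts of the same wells, so the tests say which other transcripts went with the genes of the rule.

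Among the genes higher in granulocyte wells were stored proteins of neutrophil granules. Of the 6 tested genes of the specific granules, 5 were higher, with a median log2 fold change over the list of 5.72. The collagenase Mmp8 stood at 601, 0, 239, 231 and 265 CPM in the granulocyte wells of replicates 1, 2, 3, 4 and 6 and at 0.506, 4.63, 0.168, 18.5 and 29.0 CPM in macrophages. It was higher on 4 of 5 chips (log2 fold change 5.11 ± 1.07 SE, edgeR adjusted p = 0.000977). The siderophore-binding lipocalin Lcn2 stood at 233, 0, 300.2, 154 and 260 CPM against 0, 2.07, 0, 51.3 and 2.88 CPM, higher on the same 4 chips (6.33 ± 1.31 SE, edgeR adjusted p = 0.000792). Chil3, a chitinase-like protein, had a log2 fold change of 4.33 ± 1.49 SE that did not pass (edgeR adjusted p = 0.104).

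The remaining specific granule genes came from very few wells. Ngp, neutrophilic granule protein at chr9:110419747-110423012, stood at 0, 0, 3159, 1080 and 668 CPM in granulocyte wells and at 0, 0.428, 0.168, 383 and 31.4 CPM in macrophages (log2 fold change 4.76 ± 1.02 SE, edgeR adjusted p = 0.00148). Its fitted direction turned under other member definitions, to -1.06 among wells with 1000 or more genes and -10.50 for members with none of the C1q genes. The latter value comes from member sums without a UMI, since every member with Ngp UMIs also had a C1q gene. The macrophage values came almost wholly from the 202 wells that met the granulocyte conditions as well: 16 of them held 7599 of the 7722 macrophage UMIs, or 18.98 per 10000 UMIs over the 202, against 0.0281 in the other 2915 macrophage wells and 24.2 in the members with 10 or more S100 UMIs. A single well of replicate 3 held 84.4% of the members' Ngp UMIs, 1084 of them, along with 1637 S100a8, 306 Ltf and 247 Camp UMIs. Camp, the cathelicidin antimicrobial peptide, had UMIs in 4 wells (6.88 ± 1.39 SE, edgeR adjusted p = 0.000461). Ltf, the iron-binding lactoferrin, had UMIs in 2 wells (6.82 ± 1.84 SE, edgeR adjusted p = 0.0377). A replicate 6 well with 125 Ngp, 172 Camp and 70 Ltf UMIs was the other of these 2, and it was the only other well in which the 3 genes were seen together. Without replicate 3 or without replicate 6 the calls of Ngp, Camp and Ltf were lost, with edgeR adjusted p of 0.256, 0.241 and 0.740 without replicate 3 and of 0.136, 0.209 and 0.565 without replicate 6. Camp and Ltf were also lost without replicate 1 (edgeR adjusted p = 0.101 and 0.124).

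**Figure D3:**
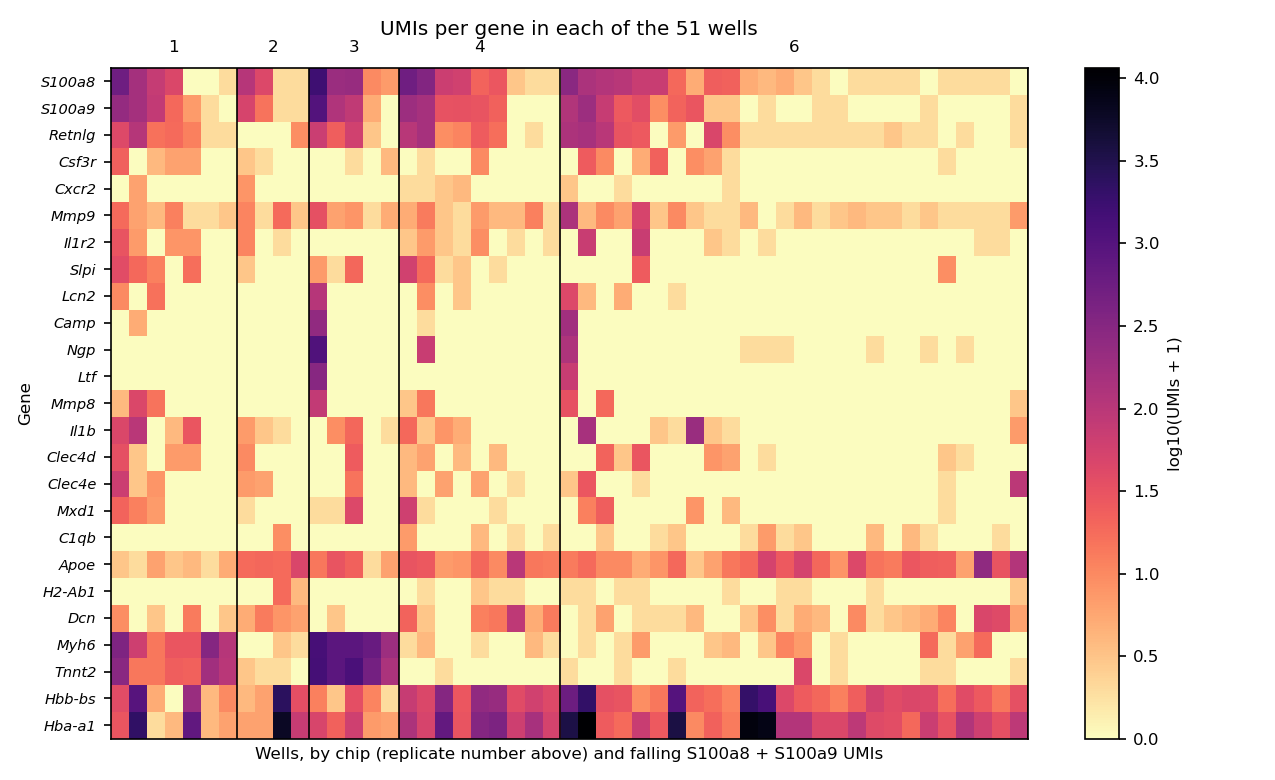
Each column is 1 of the 51 wells, ordered within its chip (numbers above) by falling S100a8 and S100a9 UMIs, each row is a gene, and the colour is log10(UMIs + 1). Ngp, Camp and Ltf are strong together in 1 well of replicate 3 and 1 of replicate 6, Il1b and Clec4e are spread over other wells, and Apoe and globins are found along the whole row.

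A protease and a protease inhibitor of the membrane and gelatinase granule list were also higher. Slpi, a secreted inhibitor of neutrophil elastase at chr2:164354070-164389095, stood at 794, 50.1, 75.8, 1218 and 163 CPM in granulocyte wells and at 0, 26.0, 0.168, 13.6 and 16.8 CPM in macrophages. The classes did not overlap, and Slpi was higher on all 5 chips (log2 fold change 5.77 ± 1.006 SE, edgeR adjusted p = 1.23e-05). It had UMIs in 13 of the 26 wells with 10 or more S100 UMIs and in 2 of the other 25. Adam8, a membrane protease of leukocytes, stood at 29.1, 100.2, 14.6, 262 and 15.3 CPM against 1.52, 3.85, 0.168, 2.998 and 4.75 CPM, again without overlap (4.61 ± 1.20 SE, edgeR adjusted p = 0.0246). They were the 2 tested genes of that list. Mir7678, a further called gene named after its values were seen, lies within Slpi on the same strand. Its 38 UMIs in members therefore cannot be told apart from Slpi reads. Wfdc21, another whey-acidic-protein family member, was higher on 4 chips (5.65 ± 1.02 SE, edgeR adjusted p = 2.58e-05).

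Hp, haptoglobin, which binds free haemoglobin and is stored in neutrophil granules, was seen in most of the members with many S100 UMIs. It lay outside the lists and, like Wfdc21, was named after its values were seen. It stood at 494, 401, 8.74, 586 and 1239 CPM in granulocyte wells and at 3.03, 16.9, 0.674, 34.2 and 49.4 CPM in macrophages. Hp was higher on all 5 chips (log2 fold change 4.77 ± 0.80 SE, edgeR adjusted p = 4.34e-06), with UMIs in 21 of the 26 and in 3 of the 25 wells. Hp kept its call when any single chip was left out, with edgeR adjusted p up to 0.00689. Slpi lost its call without replicate 1 (edgeR adjusted p = 0.0634), Wfdc21 without replicate 3 (0.0501), Mmp8 without replicates 1 and 3 (0.253 and 0.155), Lcn2 without replicates 1, 3 and 6 (0.192, 0.227 and 0.0712), and Adam8 without replicates 1, 2, 3 and 4 (0.173, 0.165, 0.198 and 0.267).

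Among the receptors, 2 neighbouring C-type lectins were higher. Clec4e (Mincle, chr6:123281789-123289870) and Clec4d (chr6:123262111-123275265) sense mycobacterial and fungal glycolipids. Clec4e stood at 707, 275, 40.8, 216 and 632 CPM in granulocyte wells and at 0, 9.62, 6.91, 20.5 and 13.1 CPM in macrophages (log2 fold change 4.91 ± 0.91 SE, edgeR adjusted p = 5.73e-05). Clec4d stood at 455, 225, 69.9, 216 and 337 CPM against 3.54, 10.8, 1.18, 15.2 and 51.9 CPM (4.58 ± 0.90 SE, edgeR adjusted p = 0.00031). Neither gene overlapped between the classes, and both were higher on all 5 chips. Clec4e was not limited to wells with many S100 UMIs, since 1 well with a single S100 UMI held 93 of its 236 UMIs. Without replicate 1 their edgeR adjusted p rose to 0.0786 and 0.0845. They were 2 of the 14 tested pattern recognition and Fc receptors that were higher, while 1, the inhibitory receptor Fcgr2b, was lower, a call lost without any single one of the 5 chips (edgeR adjusted p of 0.0832 to 0.267), and the list's median was 0.03.

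Of 7 tested chemoattractant receptors 1 was higher, Fpr1, which binds bacterial formyl peptides. It stood at 38.8, 526, 0, 170 and 30.6 CPM in granulocyte wells and at 0, 3.14, 0.842, 7.52 and 1.70 CPM in macrophages (log2 fold change 4.92 ± 1.24 SE, edgeR adjusted p = 0.0193), and 1 well held 50.0% of its UMIs. Its call was lost without replicate 1, 2, 4 or 6 (edgeR adjusted p of 0.258, 0.228, 0.206 and 0.115). Cxcr4, which holds neutrophils in the marrow and is raised on aged ones, had a log2 fold change of 0.88 ± 1.08 SE (edgeR adjusted p = 0.632). None of the 8 tested adhesion molecules passed (median 0.73). None of 8 cytokine receptors outside the rule passed (median -0.21).

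Of 14 secreted cytokines and chemokines, 1 was higher and 2 were lower, with a median log2 fold change of -1.29. Il1b, the inflammatory cytokine interleukin 1 beta, was the higher one. It stood at 1657, 225, 81.6, 478 and 1846 CPM in granulocyte wells and at 110, 105, 23.9, 49.2 and 61.1 CPM in macrophages. Il1b was higher on all 5 chips (2.89 ± 0.68 SE, edgeR adjusted p = 0.00761), although the classes overlapped across chips, and 17 of the 26 and 4 of the 25 wells had UMIs for it. Its call was lost without replicate 1, 4 or 6 (edgeR adjusted p of 0.258, 0.164 and 0.229). A pair of replicate 6 wells held 206 and 144 of its 601 UMIs. Ccl2 and Ccl9, chemokines that draw monocytes, were the lower ones, and Cxcl2, a ligand of Cxcr2, did not differ beyond the chips' spread (0.35 ± 0.80 SE, edgeR adjusted p = 0.801).

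Of 14 tested transcription factors of myeloid cells, Mxd1 was higher and Maf lower (median -0.05). Mxd1, a Myc antagonist of terminally differentiating cells, stood at 358, 25.04, 131, 941 and 229 CPM in granulocyte wells and at 9.61, 54.3, 7.07, 22.1 and 37.5 CPM in macrophages (log2 fold change 3.55 ± 0.91 SE, edgeR adjusted p = 0.0227), the order being turned on replicate 2. Its call was lost without replicate 1, 3, 4 or 6 (edgeR adjusted p of 0.258, 0.227, 0.267 and 0.0969). Spi1, the shared myeloid factor PU.1, had a log2 fold change of -0.18 ± 1.08 SE (edgeR adjusted p = 0.926). The NADPH oxidase subunits (0 of 6 called, median -0.04), interferon-stimulated genes (0 of 15, median 0.31), survival genes (0 of 9, median -0.44), other S100 genes (0 of 4, median -0.23), glycolytic enzymes (0 of 12, median -0.58) and cell cycle genes (0 of 8, median -2.10, or -1.84 with the gene lacking UMIs in members set at its bound) gave no call in either direction. These medians stand beside -1.24 over all tested genes.

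Further called genes outside the lists, named after their values were seen, had fewer UMIs. Hdc, which makes histamine, was higher on all 5 chips (log2 fold change 4.07 ± 1.02 SE, edgeR adjusted p = 0.0182), as was the inhibitory receptor Cd300lf (4.53 ± 1.18 SE, edgeR adjusted p = 0.0252). Plaur, the urokinase receptor, Rab27a, a small GTPase of granule release, Il18rap, a subunit of the interleukin 18 receptor, Mcemp1 and Asprv1 were also higher, on 3 or 4 chips. Chrna4 was called from 4 UMIs. Of the 23 higher genes, 8 were higher on all 5 chips (0.468% of all tested genes were), 4 did not overlap between the classes (Slpi, Clec4e, Clec4d and Adam8, where 0.0693% of all did not), and 11 had over 50.0% of their member UMIs from 1 chip. In the 25 members with fewer than 10 S100 UMIs, 7 of the 23 had no UMI. Members with 10 or more were 9 of the 9 wells with Lcn2, 8 of 9 with Mmp8 and 7 of 7 with Adam8. They were 14 of the 15 wells with Mxd1, 14 of 18 with Clec4d and 12 of 15 with Clec4e. The 202 wells excluded from the members by their C1q genes, which count as macrophages here, had a higher pooled rate than the other 2915 macrophage wells for 21 of the 23 genes, as a description without a test. Hdc and Cd300lf lost their call without replicates 1, 2, 3 and 4 (edgeR adjusted p of 0.111 to 0.258 for Hdc and 0.120 to 0.258 for Cd300lf), and Plaur, Rab27a, Il18rap, Mcemp1, Asprv1 and Chrna4 each lost it without at least 3 single chips.

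**Figure D4:**
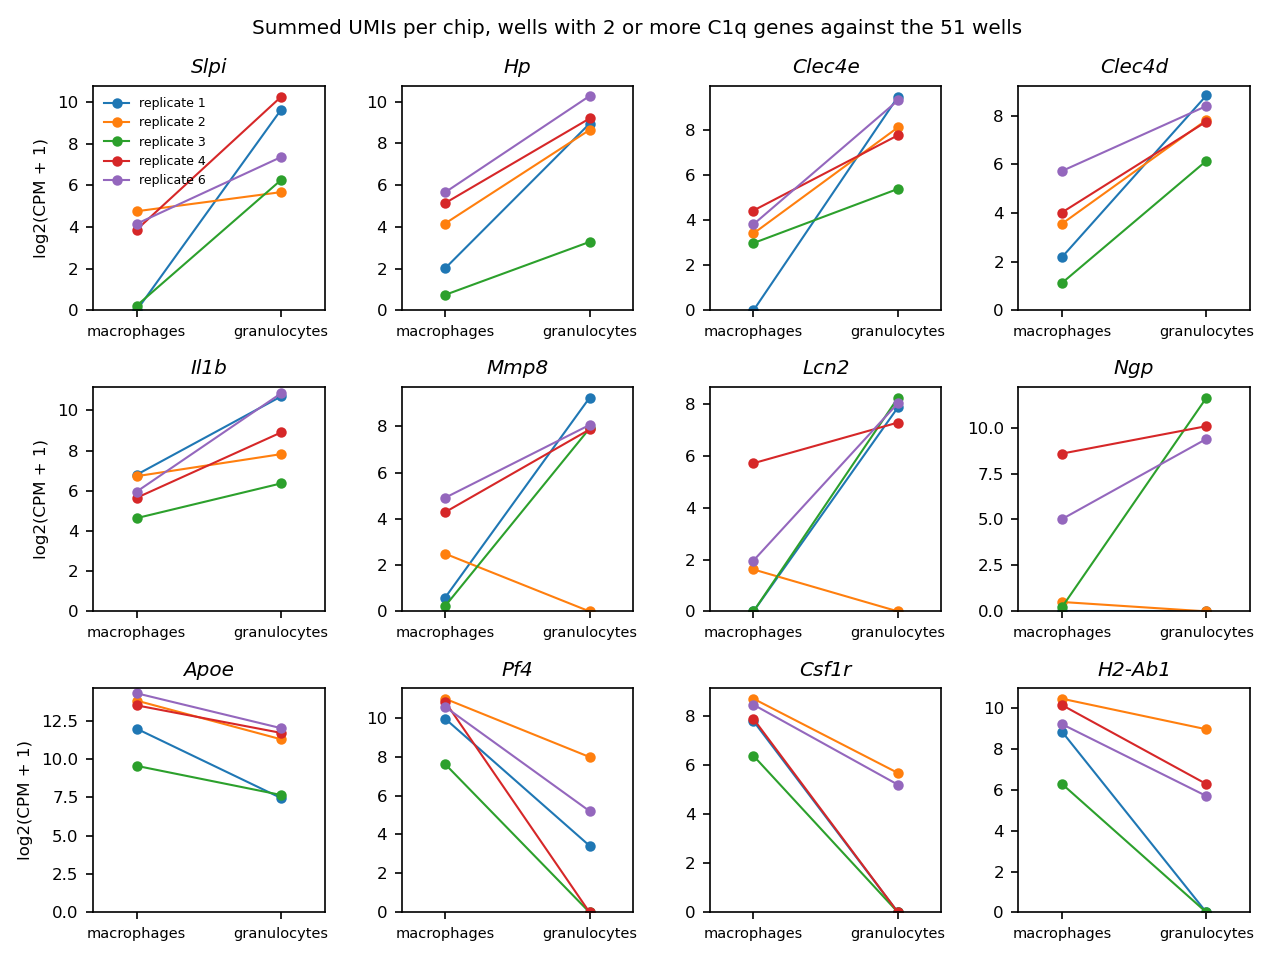
Each panel is a gene, and each line joins the summed macrophages (left) to the summed granulocyte wells (right) of 1 chip on a log2(CPM + 1) axis. Slpi, Hp, Clec4e, Clec4d and Il1b are higher in granulocyte wells on all 5 chips, Mmp8, Lcn2 and Ngp are at 0 there on replicate 2, and Apoe, Pf4, Csf1r and H2-Ab1 are lower on all 5 chips.

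Among the genes lower in granulocyte wells were markers of resident macrophages. Pf4, a chemokine of platelets and of heart macrophages, stood at 9.69, 250.4, 0, 0 and 35.7 CPM in granulocyte wells and at 987, 2003, 195, 1804 and 1501 CPM in macrophages (log2 fold change -5.81 ± 0.77 SE, edgeR adjusted p = 1.59e-10). Csf1r, the receptor that macrophages need to survive, stood at 0, 50.1, 0, 0 and 35.7 CPM against 220.5, 416, 82.2, 235 and 351 CPM, without overlap (-4.75 ± 1.014 SE, edgeR adjusted p = 0.00141). The mannose receptor Mrc1 was lower on all 5 chips (-3.75 ± 0.84 SE, edgeR adjusted p = 0.00312). Csf1r and Mrc1 were the 2 of 7 tested macrophage markers outside the rule that passed, and the other 5 had log2 fold changes below 0 on all 5 chips (list median -3.59). Csf1r and Mrc1 lost their call without replicates 1 and 3 (Csf1r edgeR adjusted p = 0.0665 and 0.0713, Mrc1 0.147 and 0.0821), and Mrc1 also without replicate 6 (0.0833). Since the classes were set by C1q genes of the same cells, fewer macrophage transcripts in members are partly fixed by the rule.

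Lipid handling and scavenging genes were lower in 4 of 10 cases (median -2.56, or -2.51 with the gene lacking UMIs in members at its bound). Apoe, the lipid carrier, stood at 174, 2504, 201, 3346 and 4140.1 CPM in granulocyte wells and at 4053, 14435, 754, 11650.1 and 20127 CPM in macrophages (log2 fold change -2.64 ± 0.40 SE, edgeR adjusted p = 6.63e-08). It was lower on all 5 chips but remained measurable in all of the members, with UMIs in 26 of 26 and 25 of 25 wells. Its pooled rate per 10000 UMIs was 5.72 in the wells with 10 or more S100 UMIs, 41.7 in the others and 120 in macrophage wells that did not meet the granulocyte conditions. Cd163, Msr1 and Selenop were the others of this list, and each lost its call without at least 3 single chips. Pf4, Apoe and H2-Ab1 kept their call when any single chip was left out, with edgeR adjusted p up to 3.08e-05, 0.00145 and 0.0379.

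Of 9 tested antigen presentation genes, which include class I and class II genes, 2 were lower (median -1.70), both encoding class II chains. H2-Ab1 stood at 0, 501, 0, 77.1 and 50.99 CPM in granulocyte wells and at 465, 1418, 77.8, 1145 and 598 CPM in macrophages (log2 fold change -4.03 ± 0.78 SE, edgeR adjusted p = 0.000183). H2-Aa was lower on 4 chips and higher on replicate 2 (-3.86 ± 0.92 SE, edgeR adjusted p = 0.00934), and its call was lost without replicate 1, 3, 4 or 6 (edgeR adjusted p of 0.0595 to 0.267). Of 11 lysosomal genes 1 was lower, Ctsc, the cathepsin that activates granule serine proteases (-4.57 ± 0.96 SE, edgeR adjusted p = 0.00112), lost without replicate 1 (edgeR adjusted p = 0.0634). Lyz2, lysozyme, which neutrophils and macrophages both make, stood at 775, 952, 918, 1311 and 790 CPM in granulocyte wells and at 1242, 2710.5, 523, 3668 and 2373 CPM in macrophages, with a log2 fold change of -1.009 ± 0.50 SE that did not pass (edgeR adjusted p = 0.235).

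The chemokines Ccl2, Ccl7, Ccl12 and Ccl9 were each lower on all 5 chips, of which Ccl7 was named after its values were seen. Ccl12 had 2 UMIs in the members, both on replicate 6, and stood at 309, 182, 49.5, 546 and 401 CPM in macrophages (log2 fold change -6.83 ± 1.19 SE, edgeR adjusted p = 1.23e-05). Ccl12 kept its call without any single chip (edgeR adjusted p up to 0.00383), while Ccl7 lost it without replicates 1 and 3 (0.0685 and 0.0610), Ccl2 without replicates 1 and 3 (0.197 and 0.0651) and Ccl9 without replicates 1, 3 and 4 (0.175, 0.155 and 0.206). Maf, a transcription factor of resident macrophages, stood at 19.4, 0, 8.74, 15.4 and 15.3 CPM against 180, 403, 71.2, 404 and 245 CPM (-4.11 ± 0.95 SE, edgeR adjusted p = 0.0052), a call lost without replicate 1, 3 or 4 (edgeR adjusted p of 0.0636, 0.0593 and 0.144). Tmem176b and the endocytic adaptor Dab2 were lower without overlap between classes (-5.76 ± 1.15 SE and -4.30 ± 0.95 SE, edgeR adjusted p = 0.000363 and 0.0028). Tmem176b kept its call without any single chip (edgeR adjusted p up to 0.0216), and Dab2 lost it without replicates 1 and 3 (0.0665 and 0.101). For 7 called genes the members had 0 UMIs. With UMIs pooled over chips and a floor of 3 UMIs over all member sums, C3ar1, Ms4a6d, Hpgd, Hdac2, Sult1a1, Cab39l and Pccb were at least 19.7-, 18.6-, 18.1-, 12.99-, 12.5-, 9.76- and 6.85-fold lower. Pooling ignores the pairing by chip, so these are not bounds within chips. Replicate 3 gave 343131 of the members' 747253 UMIs but 5.94e+06 of the macrophages' 4.75e+07. The calls of these 7 genes were each lost without at least 4 of the 5 single chips. Of the 38 lower genes, 36 were lower on all 5 chips, where 24.7% of all tested genes were, and 16 did not overlap between the classes, where 11.2% of all did not.

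**Figure D5:**
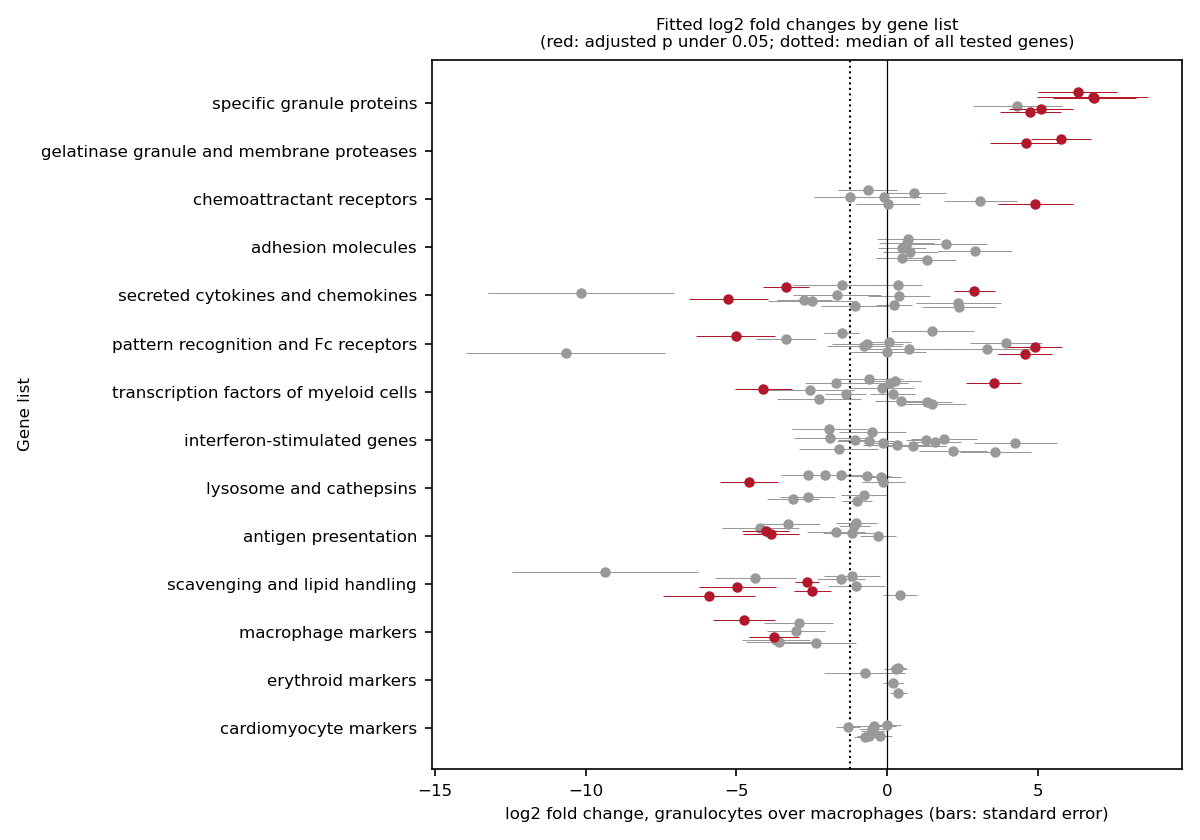
Points are tested genes, grouped by list (vertical), at their log2 fold change of granulocyte wells over macrophages (horizontal), with bars for the standard error and red for an edgeR adjusted p under 0.05. The dotted line marks the median of all tested genes at -1.24: specific granule genes and proteases lie to its right, and macrophage markers and scavenging genes mostly to its left.

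Monocyte, lymphoid and stromal markers gave few calls. Of 6 monocyte markers 1 was lower, the transglutaminase subunit F13a1 (log2 fold change -3.07 ± 0.80 SE, edgeR adjusted p = 0.0252, lost without replicate 1, 3, 4 or 6 at 0.0593 to 0.267), while Ly6c2 had a log2 fold change of -0.25 ± 0.84 SE (edgeR adjusted p = 0.869) and Ccr2 had 0 UMIs in members. Fibroblast markers gave 1 lower gene of 6, Dcn (-2.29 ± 0.55 SE, edgeR adjusted p = 0.00919), which is a matrix proteoglycan of fibroblasts rather than of macrophages. Its call was lost without replicate 1, 3 or 4 (edgeR adjusted p of 0.151, 0.227 and 0.0875), and its rate per 10000 UMIs was 1.63 in the wells with 10 or more S100 UMIs, 12.2 in the other members and 29.7 in macrophage wells. Endothelial (0 of 6), mural (0 of 5), CM (0 of 8), erythroid (0 of 5), T and NK cell (0 of 5), B cell (0 of 2) and dendritic cell (0 of 2) markers gave no call. Of 5 platelet markers only Pf4 had UMIs in members, in 10 wells.

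Against all other passing wells of the same chips, 47 of 15095 genes outside the rule passed (0.311%), 25 higher (0.166%) and 22 lower (0.146%), with a median log2 fold change of -1.48. This comparison shares the members' sums with the one above, and most other wells of replicates 2, 4 and 6 fall in the macrophage class, so the 2 are not independent. Slpi (5.92 ± 1.02 SE, edgeR adjusted p = 1.92e-05), Clec4e (5.17 ± 0.89 SE, edgeR adjusted p = 1.92e-05), Hp (4.67 ± 0.84 SE, edgeR adjusted p = 5.13e-05), Clec4d (5.18 ± 0.96 SE, edgeR adjusted p = 9e-05) and Il1b (3.69 ± 0.72 SE, edgeR adjusted p = 0.000341) were again higher. Slpi, Clec4e, Hp and Clec4d kept this call without any single chip (edgeR adjusted p up to 0.0387), and Il1b lost it without replicate 1 or 6 (0.132 and 0.0800). Ltf had a log2 fold change of 4.81 ± 1.62 SE that did not pass (edgeR adjusted p = 0.0953), which left 4 of 6 specific granule genes higher. Mrgpra2a, a receptor of the Mas-related family that neutrophils carry (5.15 ± 1.18 SE, edgeR adjusted p = 0.00693), and Retnlb, a relative of Retnlg (4.48 ± 1.02 SE, edgeR adjusted p = 0.0199), were higher here, from few UMIs, and reads may be shared between related resistin-like genes. Both lost their call without replicate 3 (edgeR adjusted p = 0.255) or replicate 6 (0.0673 and 0.0962). The genes 1700010I14Rik, Cpa6, Gm23722, Hoxc11 and Rims4 were also higher here and were not called against macrophages. Like Mrgpra2a and Retnlb, they were named after their values were seen. The call of 1700010I14Rik was lost without 4 of the single chips. Cpa6, Hoxc11 and Rims4 were not tested without 2 of the single chips, and Gm23722 without 3. Among lower genes were Pf4 (-5.04 ± 0.80 SE, edgeR adjusted p = 1.34e-06), Apoe (-2.05 ± 0.38 SE, edgeR adjusted p = 0.00011), the cell junction gene Cgnl1 (-5.85 ± 1.48 SE, edgeR adjusted p = 0.0269) and, of the CM markers, Tnnt2 (-1.44 ± 0.37 SE, edgeR adjusted p = 0.0379). Read against the median of this fit, -1.48, Tnnt2 was not lower than the typical tested gene. All 8 tested CM markers lay above that median. Pf4 kept its call without any single chip, Apoe lost it without replicate 4 (edgeR adjusted p = 0.0527), Tnnt2 without replicates 1, 3 and 4 (0.131, 0.255 and 0.275) and Cgnl1 without any single one of the 5 chips (0.0978 to 0.248). Of the 25 higher genes, 7 were higher on all 5 chips (0.364% of all tested genes were) and Slpi, Clec4e, Clec4d and Adam8 did not overlap between the groups (0.0729% of all did not). Of the 22 lower genes, 21 were lower on all 5 chips, where 32.4% of all tested genes were. Without replicate 1, 3, 4 or 6 the calls became 9 higher and 5 lower, 8 and 3, 20 and 2, and 8 and 10.

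The same rule met few wells on the other chips of the series. It found 6 of 2381 passing wells at P4, 7 of 2441 at P7, 2 of 1776 at P14 and 25 of 7382 on the chips labelled P28 Adult, of mice of the same strain that had received lentiviral hairpins against Jun or a control hairpin. P4 and P7 hearts were digested with an isolation kit and not by perfusion, so digestion and age cannot be told apart in these shares. In the 25 wells of the hairpin chips, pooled, 14 of the 23 genes that were higher at P28 lay above the macrophages of those chips, 8 lay below, and 6 had no UMI, most of these among the 8. Slpi stood at 100.7 CPM there against 3.04 CPM in macrophages, Il1b at 100.1 against 3.06 CPM, and Hp at 159 against 65.5 CPM. Of the 38 lower genes, 32 lay below the macrophages there as well. The share of all genes on either side was not counted on those chips, so neither count has a background. At P28, only 1608 of the 11540 tested genes had a log2 fold change above 0, so lying below macrophages was the common direction. These pooled values had no test.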

How the data were processed

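Single cells of hearts were dispensed on ICELL8 chips, and wells were imaged to choose single live cells. Per the labels and the study's methods, the authors aligned reads with STAR 2.5.2b to mouse build mm10, assigned them with featureCounts of Subread 1.4.6-p1 and deposited UMI counts per gene and well, 1 table per chip, which are unnormalized counts. No doublet caller was run here. Spike-ins and the reporter were left out, which kept 35843 genes with an Ensembl identifier, and every column was tied to a sample (0 without one). The 35 mitochondrial genes were left out of the UMIs per well and of the sums, but they counted as detected genes. With mitochondrial genes not counted there, 50 of 6448 passing P28 wells were members (0.775%). Wells with under 500 detected genes and control wells were dropped.

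UMIs were summed per chip and class and tested with edgeR 4.0.16 (limma 3.58.1, R 4.3.3), by quasi-likelihood with TMM scaling, its default filter on low counts and chip as a block, and Benjamini-Hochberg adjustment over all tested genes at 0.05. CPM are UMIs over the sum of all UMIs, without TMM. The planned minimum of 10 wells per class and chip left replicate 6 alone, so 4 wells were required, a choice made after the counts were seen. Both classes of a chip come from the same library, which is why they were paired. Deviations from the class means correlated between same-chip sums at r = 0.56, 0.43, 0.75, 0.46 and 0.52 over 1462 genes in replicates 1, 2, 3, 4 and 6. Sums of different chips ran from r = -0.65 to 0.58. The highest was between members of replicate 1 and macrophages of replicate 3, above replicate 1's own value, and members of replicate 3 with macrophages of replicate 1 reached 0.55. The fit was tested on simulated sums with known changes. Changed genes were drawn only from those with larger summed counts, so the shares called do not cover sparse genes. For the macrophage comparison, 1 of 34 genes raised 4-fold, 9 of 33 raised 16-fold and 33 of 33 raised 64-fold were called. Of lowered genes, 1 of 28, 6 of 27 and 7 of 24 were called at these folds. Unchanged genes had a median log2 fold change of -0.82, and 2 of 10562 were called. A list without calls may therefore still hold changes. Intervals are exact Clopper-Pearson at 95% and cover counting error only, and the floor for a count of 0 was 3 counts. DESeq2 1.42.0, other scalings, filters and member definitions were tried as alternatives. Python 3.11.15, numpy 2.4.6, pandas 2.3.3 and scipy 1.17.1 were used for the rest. Genes named are those of the marker and gene lists, plus, per comparison and direction, up to 10 called genes outside the lists without overlap between sums, taken by smallest p; others are said to be named after their values were seen. The members, lists and tests were chosen with earlier results of these data known.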

Additional observations from a re-analysis of the deposited data

Results flagged for a closer look

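Values that stood apart from the others of their group by Dixon's criterion at 95% are given here without explanation. Chance marks about 1 in 20 groups, and 79 groups were examined. The share of granulocyte wells on replicate 6, 2.52%, stood above those of the other 5 chips. The log2 ratio of median UMIs of granulocyte wells over macrophages on replicate 4, -1.61, stood below those of the other chips.

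Among granulocyte sums, on the log2(CPM + 1) scale, Lcn2, Mmp8 and Maf stood low at 0 on replicate 2, which had the fewest members. Ccl9 at 4.03, Ccl12 at 3.49, Tmem176b at 4.73 and Msr1 at 2.61 stood high on replicate 6, each being at 0 on the other 4 chips. With those 4 chips at 0, any count on replicate 6 stands apart by this criterion. Msr1 had 1 UMI there and Ccl9 had 3. Among macrophage sums, Ltf stood high at 6.12 on replicate 4, and Ccl9 at 4.47, Fcgr2b at 4.99, Ctsc at 4.76, Selenop at 8.36 and F13a1 at 6.69 stood low on replicate 3.

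Counts outside the comparisons also held the signal. The rule was met by 6 wells at P4, 7 at P7 and 25 on the hairpin chips. Both granulocyte conditions were met by 202 P28 wells with 2 or more C1q genes. Control wells of the P28 chips held 62 Mmp9 UMIs.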

How the results depend on the processing

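Against macrophages, where 23 genes were higher and 38 lower, the counts became 2 and 19 with 1000 or more genes per well, 13 and 9 with log10 UMIs within 2 SD, 2 and 3 for members with none of the C1q genes, 3 and 2 with at least 3 of the 5 genes, 12 and 19 without a filter on low counts, 3 and 3 with sums per animal, 3 and 2 with Mmp9 left out and 0 and 2 without replicates 1 and 3. DESeq2 called 94 higher, median-of-ratios factors 16 lower, thinning to 1000 UMIs 64 lower, members with any number of C1q genes 57 and 6, macrophages without S100a8 and S100a9 UMIs 43 higher, and macrophages with all 3 C1q genes 79 lower. With any 1 of the 5 fitted chips left out they ran from 3 to 23 higher and from 6 to 31 lower. Against all other wells, where 25 were higher and 22 lower, the same changes gave 2 and 9, 8 and 3, 4 and 0, 3 and 1, 8 lower without the filter, 2 and 0 per animal, 4 and 1, and 1 and 2. DESeq2 gave 136 higher, median-of-ratios factors 58 and 8, summed UMIs alone 10 lower, thinning 49 and 852, any number of C1q genes 74 higher, and single fitted chips left out 8 to 27 higher and 2 to 17 lower. Without the replicate block, edgeR called 0 genes higher and 0 lower in either comparison, with 1040 and 2355 genes at an unadjusted p under 0.05, although the chips pair the classes by design.

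The share of granulocyte wells moved from 0.783% to 0.517% with 1000 or more genes, 0.353% with none of the C1q genes, 0.292% with at least 3 of the 5 genes, 0.307% with Mmp9 left out and 3.88% with any number of C1q genes, and ran from 0.456 to 0.931% with single chips left out. The mean log2 depth ratio ran from -0.26 to 0.25 with single chips left out, turning sign without replicate 4. With 1000 or more genes, Ngp fitted at -1.06 against macrophages and at -2.95 against other wells, and Ltf at -0.23 against other wells. With none of the C1q genes, Ngp fitted at -10.50 and -12.21, and Camp and Ltf at -1.63 and -9.91 against other wells. Every member with Ngp or Ltf UMIs had a C1q gene, so these Ngp and Ltf values come from member sums without a UMI. Camp kept 4 UMIs there, in a single replicate 1 well. The cause of the other changes was not tested. Over the genes followed through all alternatives, against macrophages 306 values kept direction and call, 214 kept direction but lost the call and 2 turned sign. Against other wells the counts were 274, 198 and 5, with 5 gaining a call. There the 274 include genes such as Ltf, Mrc1, Ccl2 and Selenop that stayed uncalled. Both totals include the fit without replicate 5, which held no members, so that fit repeats the reported one. The planned minima of 10 and 20 wells could not be fitted, since only replicate 6 held 10 members. Small sums limit the tests: 25 of the 51 wells had 1 to 6 S100 UMIs, and 824 tested genes had no member UMI.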
